A study of Mus musculus with 12 samples.

Results

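The proteasome genes described here are the protein-coding genes of the count table whose mouse symbol begins with Psma, Psmb, Psmc, Psmd, Psme or Psmg followed by a digit, with Psmf1 added and pseudogenes left out. This rule on symbols took 50 of the 56941 genes in the table, of which 21800 were protein-coding, and it used no measured value. By role the members were 15 core particle genes, 4 genes of inducible or thymus-type catalytic subunits, 17 cap genes, 5 activators, 7 assembly chaperones and the regulator Psmf1. The remaining member, Psmc3ip, entered by its symbol alone: it encodes HOP2, a protein of meiotic recombination, and is counted apart.

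The libraries came from CH12F3-2A, a line grown from a mouse B lymphoma, whose cells make IgM and switch to IgA when stimulated. The study concerned NOP16, a nucleolar protein, in that switch. All cells had received the pX459 plasmid, which carries Cas9, and 72 h of puromycin. The sgCtr groups received a non-targeting guide and the sgNop16 groups a guide against Nop16. Each was either left without stimulation or given CIT (anti-CD40L at 1 μg/ml, mouse IL-4 at 20 ng/ml and human TGF-β at 1 ng/ml) for 24 h. The 4 groups had 3 biological replicates each, and the labels name no clone. Total estimated counts lay between 38866418 and 48615177 per library. The targeted gene, Nop16, was at 106 ± 2.35 CPM (counts scaled to the library total; mean ± SD, n = 3) with sgCtr and 85.7 ± 3.10 CPM with sgNop16 in unstimulated cells. After CIT it was at 77.1 ± 3.46 and 65.7 ± 0.930 CPM. The guide difference was -0.31 on the log2 scale without CIT (adjusted p = 0.000109) and -0.23 with it (adjusted p = 0.00204), by edgeR's quasi-likelihood test with Benjamini-Hochberg adjustment over 16794 genes. A gene is called higher or lower here where that adjusted p was under 0.05. The 8 B cell markers examined were all tested and summed to 3770 to 4238 CPM per library, and the sums were lower in every sgNop16 library than in every sgCtr library. Of the 6 macrophage markers, Cd14, Lyz2 and Fcgr1 were at 0 in all libraries, and the list summed to 0.691 to 2.12 CPM without CIT and 4.35 to 9.80 CPM with it. Most of that sum was Csf1r, with means of 0.811 and then 4.54 CPM with sgCtr and 1.46 and then 7.75 CPM with sgNop16. The 7 T cell markers summed to at most 2.60 CPM and the 6 fibroblast markers to at most 0.919 CPM. The part of these differences in the results below was not tested. In bulk RNA, fewer cells of a kind and less RNA per cell cannot be told apart.

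The proteasome is the main protease of the cytosol and nucleus. Its barrel-shaped core particle has outer rings of alpha subunits, which control entry, and inner rings of beta subunits, of which Psmb5, Psmb6 and Psmb7 cut proteins. A cap of ATPases, scaffold and lid proteins binds ubiquitin-tagged substrates, unfolds them and feeds them into the core. In lymphoid cells, and under interferon elsewhere, newly made cores carry Psmb8, Psmb9 and Psmb10 in place of the constitutive catalytic subunits. These immunoproteasomes favour peptides that bind MHC class I. The activator PA28, a ring of Psme1 and Psme2, docks on the core in place of a cap and is likewise linked to antigen processing.

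Promoters of 5 members are shown because these genes set out the range of the results: Psmb9 and Psmb8 rose with CIT, Psma6 rose against the other core genes, and Psme1 and Psmd12 fell. Each run holds 250 bases before and 50 after a RefSeq start site, 5′ to 3′ on the gene's strand, from the RefSeq promoter table of GRCm38.p6. Capitals mark matches, on either strand, to any of the motifs searched, which are named below.
Psmb9 (chr17:34187281-34187580, minus strand): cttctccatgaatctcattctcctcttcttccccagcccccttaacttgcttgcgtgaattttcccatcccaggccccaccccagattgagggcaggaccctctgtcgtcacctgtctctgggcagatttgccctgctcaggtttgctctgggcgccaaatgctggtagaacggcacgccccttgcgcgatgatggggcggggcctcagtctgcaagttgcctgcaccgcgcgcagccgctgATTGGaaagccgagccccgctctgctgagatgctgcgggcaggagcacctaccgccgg
Psmb8 (chr17:34197945-34198244, plus strand): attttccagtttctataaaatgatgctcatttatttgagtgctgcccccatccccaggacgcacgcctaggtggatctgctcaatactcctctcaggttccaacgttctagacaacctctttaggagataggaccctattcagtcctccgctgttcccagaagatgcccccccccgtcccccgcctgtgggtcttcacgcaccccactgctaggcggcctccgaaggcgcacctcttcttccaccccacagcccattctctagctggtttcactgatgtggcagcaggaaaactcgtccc
Psma6, the downstream of its start sites in the table (chr12:55398575-55398874, plus strand): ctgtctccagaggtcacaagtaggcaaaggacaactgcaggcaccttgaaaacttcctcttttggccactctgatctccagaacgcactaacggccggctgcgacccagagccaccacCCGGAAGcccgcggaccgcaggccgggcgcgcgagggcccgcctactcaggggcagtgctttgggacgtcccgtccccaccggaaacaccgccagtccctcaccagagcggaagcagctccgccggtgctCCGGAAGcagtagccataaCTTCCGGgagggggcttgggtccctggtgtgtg
Psme1 (chr14:55578244-55578543, plus strand): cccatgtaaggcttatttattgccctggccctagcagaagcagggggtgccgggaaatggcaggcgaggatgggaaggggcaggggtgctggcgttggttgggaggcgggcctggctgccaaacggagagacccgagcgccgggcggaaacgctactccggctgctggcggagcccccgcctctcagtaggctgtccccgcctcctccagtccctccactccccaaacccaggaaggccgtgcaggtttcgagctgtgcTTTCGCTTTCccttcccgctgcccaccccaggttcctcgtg
Psmd12 (chr11:107479278-107479577, plus strand): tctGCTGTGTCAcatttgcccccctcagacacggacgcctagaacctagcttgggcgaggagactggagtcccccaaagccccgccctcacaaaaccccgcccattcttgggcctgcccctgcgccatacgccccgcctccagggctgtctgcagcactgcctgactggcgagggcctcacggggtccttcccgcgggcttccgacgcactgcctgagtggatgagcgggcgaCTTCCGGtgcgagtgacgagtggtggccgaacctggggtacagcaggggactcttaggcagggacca

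The motifs were CCGGAAG (the ETS site), CCAAT (the CCAAT box), TGACNNNGC (the core of the antioxidant response element), CACGTG (the E box), the core of the interferon-stimulated response element and a pair of kappa B sites. Promoters of 42 of the 50 members were in the table, which held 27025 genes, and both strands were read. The ETS site was present in 15 of the 42 members (35.7%) and in 9.93% of all genes in the table. By role, it was in 9 of 14 cap genes (64.3%), 2 of 5 activators (40.0%), 2 of 6 chaperones (33.3%), 1 of 11 core genes (9.09%) and 0 of the 4 inducible and thymic subunits. The remaining match was Psmc3ip. The downstream Psma6 window holds that motif 3 times, at bases -132, -2 and 18 counted from the start site, and Psma6 was the core gene with the match. Psmd12 has 1 ETS match at -17 and 1 antioxidant element core at -247. The Psme1 window holds an interferon element core at 10, and the Psmb9 window a CCAAT box at -8. Psmb8 had no match. The interferon element core was in 5 of the 42 members (11.9%) and in 3.99% of all genes. For the antioxidant element core the shares were near each other, 6 members (14.3%) and 14% of all genes. The CCAAT box was in 15 members (35.7%) and in 41.1% of all genes. The E box was in 4 members (9.52%) and in 8.09% of all genes. No member matched either kappa B site, which 0.174% and 0.107% of all genes held. A match of letters is a description of the window, not of binding.

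Without stimulation, CH12F3-2A cells carried RNA for all 3 interferon-linked catalytic subunits. To compare genes, CPM was divided by the coding length, giving CPM per coding kb. This leaves out untranslated bases, whose reads the counts may also hold. In GENCODE M21 the transcripts of Psmb8, Psmb5, Psmb6 and Psmb7 were 1628, 899, 798 and 1160 bases long. Division by those lengths would not put Psmb8 first in any group, so the orders below do not hold for the transcript length. In CPM without division by length Psmb8 was first in each group. That order differed from the order per coding kb only in unstimulated sgNop16 cells. Per coding kb the order in unstimulated sgCtr cells was Psmb8 at 294, Psmb5 at 269, Psmb6 at 253, Psmb7 at 213, Psmb10 at 86.9 and Psmb9 at 80.6. The library ranges of Psmb8 (274 to 317) and Psmb5 (260 to 283) overlapped, as did those of Psmb10 and Psmb9. After CIT the sgCtr order was Psmb8 at 380, Psmb5 at 227, Psmb6 at 224, Psmb7 at 186, Psmb9 at 157 and Psmb10 at 74.4. Psmb8 now lay clear of Psmb5, and Psmb9 clear of Psmb10, while Psmb5 and Psmb6 overlapped. In unstimulated sgNop16 cells Psmb9 (93.5 CPM per coding kb, 92.5 to 94.1 over libraries) lay above Psmb10 (83.7, 81.4 to 84.9) on this scale. In CPM without division by length the order was the reverse, with Psmb9 at 61.4 and Psmb10 at 68.5. With CIT and sgNop16, Psmb8 stood at 390, Psmb5 at 247, Psmb6 at 246, Psmb7 at 203, Psmb9 at 172 and Psmb10 at 79.2, and again only Psmb5 and Psmb6 of the neighbours in that order overlapped.

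Psmb9, which replaces the caspase-like subunit Psmb6, rose most of all 48 members tested. In sgCtr cells it was at 53.7, 51.8 and 53.3 CPM without CIT and at 102.0, 102.6 and 104.5 CPM with it. In sgNop16 cells the libraries were at 61.8, 60.7 and 61.8 CPM and, with CIT, at 119.8, 110.4 and 109.3 CPM. No stimulated library overlapped an unstimulated one, and every sgNop16 library lay above every sgCtr library of the same state. The CIT response was 0.96 ± 0.0439 (log2 ± SE, 1.95-fold, adjusted p = 1.93e-14) with sgCtr and 0.88 ± 0.0437 (1.84-fold, adjusted p = 9.58e-14) with sgNop16. Psmb9 shares 212 exon bases with Tap1 on the opposite strand in GENCODE M21, and Tap1, a peptide transporter gene, went from 54.3 to 132 CPM with sgCtr. Reads from that stretch cannot be told apart without the strand, and whether counting used it was not given in the sources used here.

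Psmb8, which replaces the chymotrypsin-like subunit Psmb5, was at 226.8, 241.2 and 262.3 CPM in unstimulated sgCtr cells and 305.8, 320.3 and 317.0 CPM after CIT. The sgNop16 libraries were at 252.2, 259.8 and 244.9 CPM and then 332.2, 310.0 and 326.1 CPM. All stimulated libraries lay above all unstimulated ones, and within each state the guides overlapped. The response was 0.37 ± 0.0411 (1.29-fold, adjusted p = 1.30e-07) with sgCtr and 0.36 ± 0.0411 (adjusted p = 2.81e-07) with sgNop16. Psmb8 shares exon bases with the antisense transcript Gm20496 in the same annotation.

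Psmb10, which replaces the trypsin-like subunit Psmb7, did not rise. Its libraries were at 71.8, 66.3 and 75.3 CPM in unstimulated sgCtr cells and 61.3, 59.3 and 62.1 CPM after CIT, with no overlap. It was called lower there, at -0.22 ± 0.0570 (adjusted p = 0.00258). With sgNop16 it was at 69.3, 69.6 and 66.6 CPM and then 70.5, 63.6 and 60.5 CPM. Those groups overlapped, and the difference of -0.08 ± 0.0570 was not called (adjusted p = 0.317). Across the 12 libraries, which share 4 groups, Psmb8 and Psmb9 had a Pearson r of 0.959 on log2 CPM, whereas Psmb10 had -0.622 with Psmb8 and -0.673 with Psmb9. The inducible subunits thus did not vary as 1 block, and no search for genes of a like pattern was made from their mean. The plot of the 6 catalytic subunits shows this split.

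**Figure D1:**
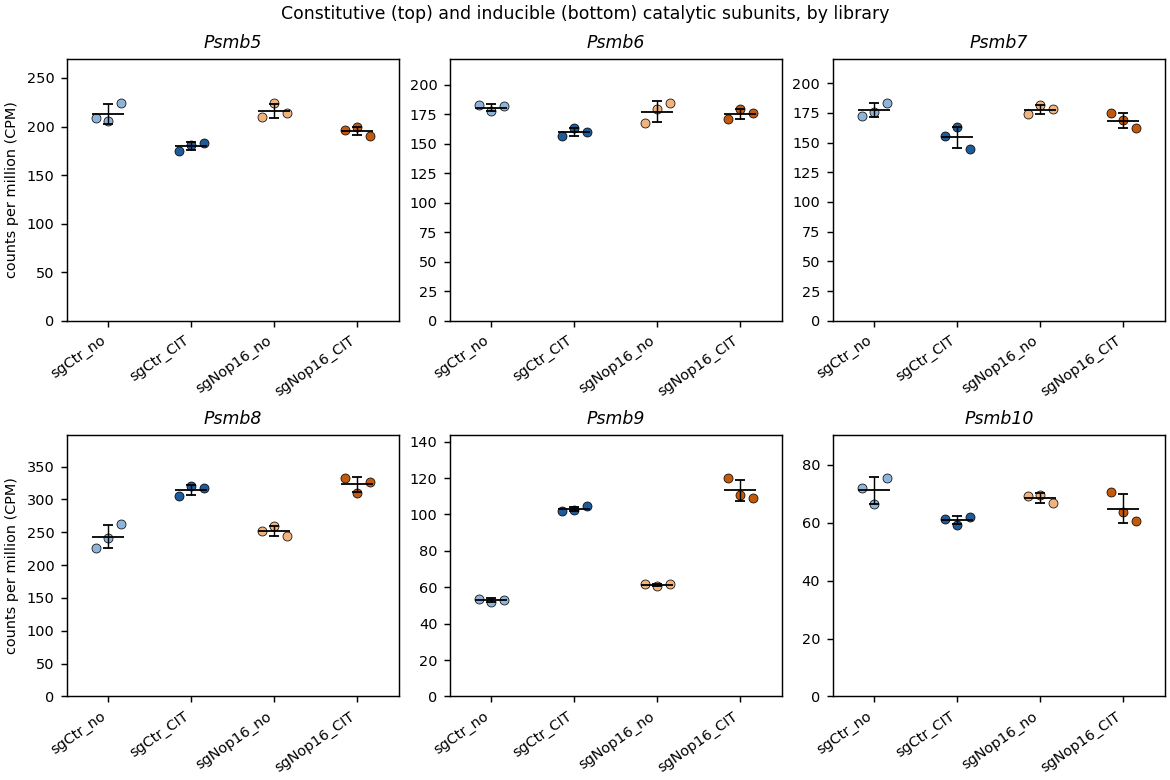
Levels in CPM of the 6 catalytic subunits in each of the 12 libraries, with the mean and SD (n = 3) of each group. Psmb8 and Psmb9 are higher in the stimulated groups, Psmb10 is not, and the constitutive Psmb5, Psmb6 and Psmb7 are lower or near their unstimulated levels.

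The constitutive catalytic subunits fell with CIT in sgCtr cells. Psmb5 went from 209.0, 205.7 and 224.5 CPM to 175.0, 180.7 and 183.4 CPM (-0.25 ± 0.0366, adjusted p = 7.10e-06). Psmb6 went from 182.4, 177.4 and 181.6 CPM to 156.3, 163.6 and 160.0 CPM (-0.17 ± 0.0368, adjusted p = 0.000463). Psmb7 went from 172.4, 175.8 and 183.5 CPM to 155.7, 162.8 and 145.0 CPM (-0.20 ± 0.0408, adjusted p = 0.000340). None of these groups overlapped. In sgNop16 cells Psmb5 was called lower (-0.14 ± 0.0366, adjusted p = 0.00283), from 209.7, 224.3 and 214.3 CPM to 196.7, 199.2 and 190.5 CPM. Psmb6 was at 167.2, 179.5 and 184.7 CPM and then 170.8, 179.4 and 176.0 CPM, and its difference of -0.01 was not called (adjusted p = 0.826). Psmb7 was at 173.7, 181.5 and 177.9 CPM and then 174.6, 168.7 and 161.9 CPM, at -0.08 (adjusted p = 0.152). For both of these the groups overlapped.

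Set against the subunit it replaces, each inducible subunit moved differently. The log2 ratio of Psmb9 to Psmb6 in CPM was -1.77 ± 0.00659 in unstimulated sgCtr cells (SD, n = 3) and -0.63 ± 0.0331 after CIT. In sgNop16 cells it was -1.53 ± 0.0793 and then -0.63 ± 0.106. The unstimulated sgNop16 libraries, between -1.58 and -1.44, all lay above the sgCtr ones, between -1.78 and -1.76, and after CIT the guides overlapped. The ratio of Psmb8 to Psmb5 went from 0.19 ± 0.0634 to 0.81 ± 0.0181 with sgCtr and from 0.22 ± 0.0380 to 0.72 ± 0.0743 with sgNop16. The ratio of Psmb10 to Psmb7 moved by less than the spread between libraries, from -1.32 ± 0.0775 to -1.34 ± 0.117 with sgCtr and from -1.38 ± 0.0460 to -1.38 ± 0.0610 with sgNop16.

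Over the whole family, the CIT response was mostly downward. With sgCtr, 4 of the 48 members tested were called higher (Psmb9, Psmb8, Psma6 and Psmd10) and 38 lower, so 87.5% were called. Among all 16794 genes 41.7% were called, 20.6% higher and 21.1% lower. The median member difference was -0.23, beside 0.02 over all genes. In 39 members all stimulated libraries lay below all unstimulated ones and in 4 above, which held for 25% and 25.5% of all genes. With sgNop16, 3 members were called higher (Psmb9, Psma6 and Psmb8) and 26 lower (60.4%), beside 37.8% of all genes, 19.3% higher and 18.5% lower. The median was -0.12, beside 0.01 over all genes, and in 29 members all stimulated libraries lay below all unstimulated ones (22.7% of all genes). Psma8, a testis-type alpha subunit, had no count in any library, which allows up to 0.0228 CPM over the 12 libraries (12 counts, taken as 3 fragments, counting error only). Psmb11, the thymus-type catalytic subunit, was at 0 in 5 libraries and at most 0.460 CPM. Neither was tested, and the other 48 passed the filter on low counts.

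**Figure D2:**
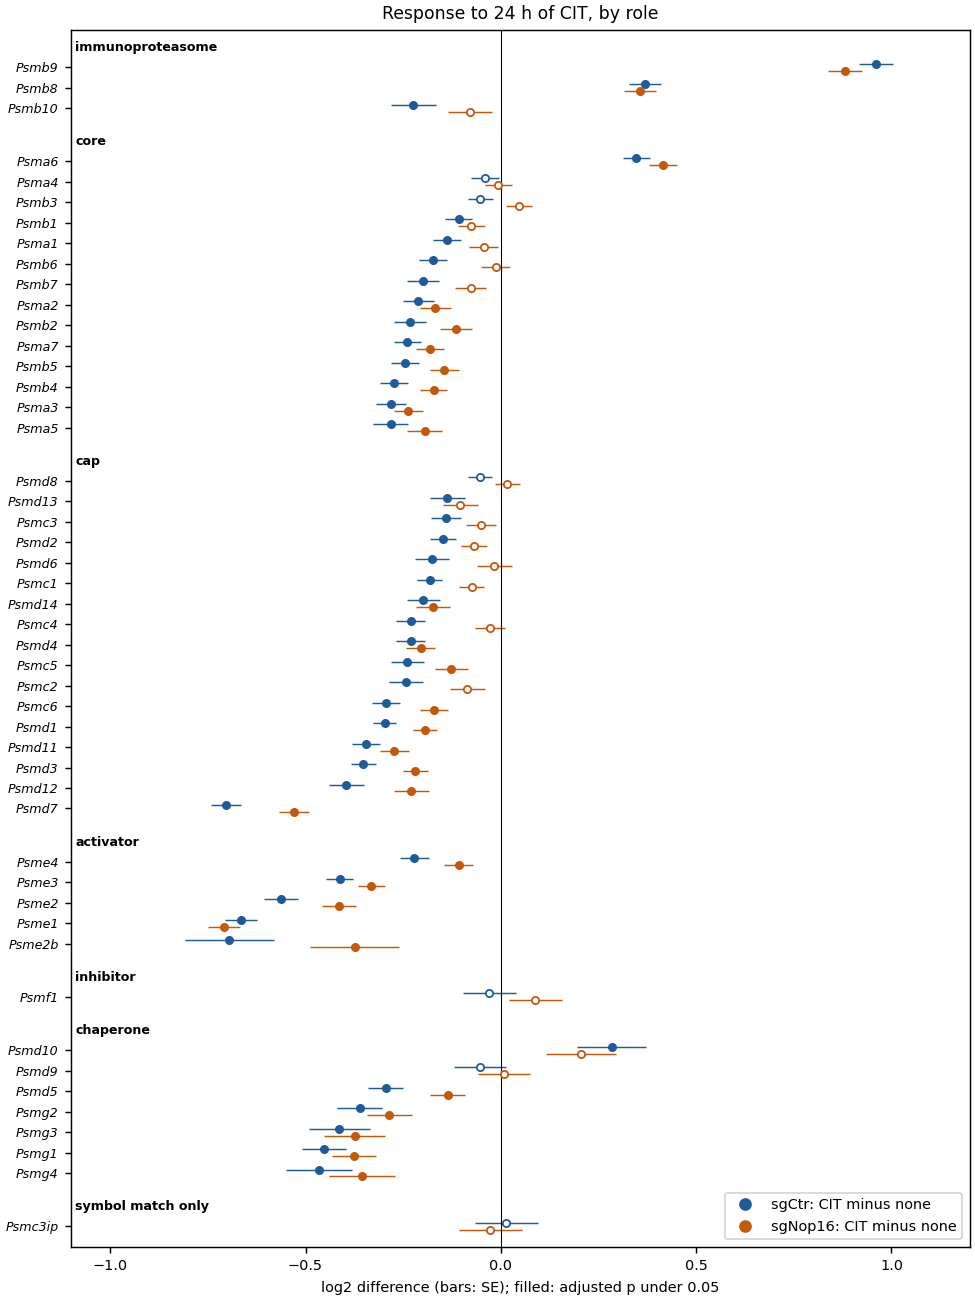
Log2 CIT response of each of the 48 tested members with each guide, grouped by role, with the model's SE as bars, filled points for called members and a line at 0. Most points lie below 0, Psmb9, Psmb8 and Psma6 lie above it with both guides, and Psme1, Psme2 and Psmd7 are among the farthest below.

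Among the core genes 14 were tested, and with sgCtr 1 was called higher and 11 lower (median -0.21). Psma6, an alpha ring subunit, was the exception. It was at 203.8, 200.3 and 205.1 CPM without CIT and 248.7, 256.8 and 269.3 CPM with it in sgCtr cells. In sgNop16 cells the libraries were at 219.1, 211.4 and 224.2 CPM and then 277.7, 301.6 and 293.7 CPM. Within each guide the states did not overlap, and the responses were 0.35 ± 0.0354 (1.27-fold, adjusted p = 2.58e-08) and 0.42 ± 0.0354 (1.33-fold, adjusted p = 1.52e-09). The core genes that fell most were the alpha subunits Psma5 and Psma3, both at -0.28 with sgCtr (adjusted p = 1.75e-05 and 1.70e-06). Psma3 went from 116.4, 112.8 and 120.9 CPM to 98.5, 94.3 and 95.4 CPM. With sgNop16 they were at -0.20 (adjusted p = 0.00128) and -0.24 (adjusted p = 2.12e-05), and 7 core genes were called lower in all. Psma4 (-0.04) and the beta ring subunit Psmb3 (-0.05) were not called with sgCtr.

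Of the 17 cap genes, 16 were called lower with sgCtr and none higher (median -0.23). This took in all 6 ATPases of the base (Psmc1 to Psmc6, -0.29 to -0.14), both scaffold subunits Psmd1 and Psmd2, the ubiquitin receptor Psmd4 and 7 of 8 lid genes. The exception was the lid subunit Psmd8, at -0.05 (adjusted p = 0.194). Psmd7, which pairs with the deubiquitinase Psmd14 in the lid, fell most. Its sgCtr libraries were at 167.2, 163.1 and 163.1 CPM without CIT and at 99.8, 104.0 and 99.2 CPM with it. In sgNop16 cells they were at 160.2, 148.3 and 147.4 CPM and then at 104.4, 106.7 and 104.8 CPM. The responses were -0.70 ± 0.0378 (adjusted p = 3.62e-13) and -0.53 ± 0.0378 (adjusted p = 6.90e-11), and in neither guide did the states overlap. Next with sgCtr came the lid subunit Psmd12, from 143.7, 144.6 and 149.9 CPM to 105.4, 115.6 and 112.0 CPM (-0.40 ± 0.0444, adjusted p = 1.15e-07). The Psmd12 response with sgNop16 was -0.23 (adjusted p = 0.000212).

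With sgNop16, 9 cap genes were called lower and none higher (median -0.13), among them 2 of the 6 base ATPases. After Psmd7 the largest fall was that of Psmd11, a lid scaffold protein, from 188.4, 173.8 and 185.8 CPM to 149.7, 153.0 and 150.8 CPM (-0.27 ± 0.0367, adjusted p = 2.07e-06). Its sgCtr libraries went from 184.2, 176.8 and 172.3 CPM to 140.3, 143.1 and 136.4 CPM (-0.34, adjusted p = 5.17e-08). Both pairs of groups were clear of each other.

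The activators fell with both guides, 5 of 5 in each (median -0.56 with sgCtr and -0.37 with sgNop16). Psme1, the alpha chain of PA28, was at 243.3, 245.1 and 256.9 CPM in unstimulated sgCtr cells and 162.6, 157.3 and 149.9 CPM after CIT (-0.67 ± 0.0410, adjusted p = 4.24e-12). With sgNop16 it was at 236.5, 217.9 and 223.5 CPM and then 131.6, 145.6 and 137.6 CPM (-0.71 ± 0.0411, adjusted p = 1.70e-12). Psme2, the beta chain, went from 216.0, 206.9 and 233.0 CPM to 148.7, 147.2 and 148.3 CPM with sgCtr (-0.56 ± 0.0442, adjusted p = 3.14e-10). In sgNop16 cells it went from 216.6, 210.0 and 225.4 CPM to 151.5, 170.3 and 167.1 CPM (-0.42 ± 0.0441, adjusted p = 5.79e-08). For both chains the states were clear of each other, so the PA28 chains fell while Psmb8 and Psmb9 rose in the same libraries.

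Psme3, which forms the nuclear form of PA28, had the highest level per coding kb of the tested members in unstimulated sgCtr cells, at 460. Psme3 would rank first only for the coding length (762 bases) and not for the transcript length (2664 bases). It fell from 357.6, 339.4 and 354.6 CPM to 261.9, 251.9 and 276.1 CPM with sgCtr (-0.41 ± 0.0343, adjusted p = 8.22e-10) and by 0.33 on the log2 scale with sgNop16 (adjusted p = 3.73e-08). Psme4, the PA200 activator, fell by 0.22 (adjusted p = 3.29e-05) and 0.11 (adjusted p = 0.0245). Psme2b, a near-copy of Psme2, was at 87.0, 77.7 and 67.5 CPM and then 41.3, 51.9 and 50.1 CPM with sgCtr (-0.70 ± 0.114, adjusted p = 0.000403). Its coding sequence and that of Psme2 have 715 identical bases of 720 (99.3%). Reads may thus have been split between them, and the values of both Psme2b and Psme2 are uncertain. The call of Psme2b with sgNop16 (-0.37, adjusted p = 0.0226) did not hold without sgNop16 unstimulated replicate 2 (adjusted p = 0.0696), CIT replicate 2 (0.0884) or CIT replicate 3 (0.0756). That of Psme4 did not hold without sgNop16 unstimulated replicate 1 (0.0873) or CIT replicate 1 (0.113).

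**Figure D3:**
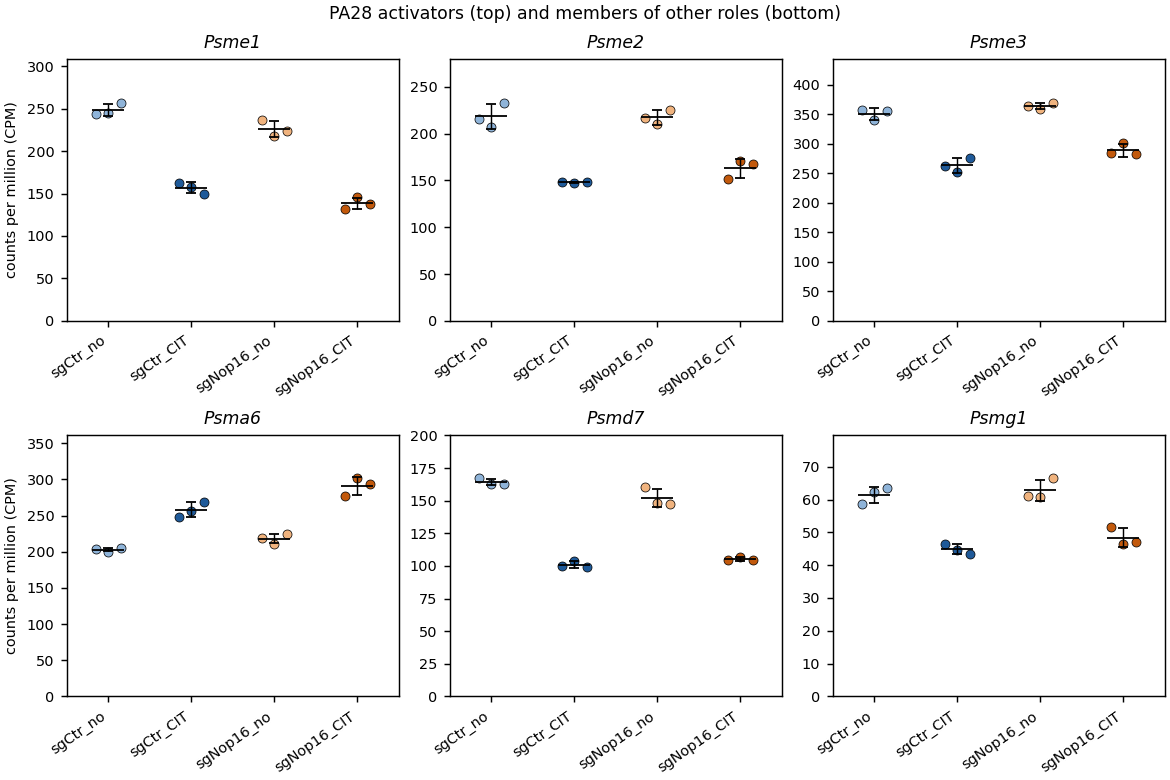
Levels in CPM of the PA28 genes Psme1, Psme2 and Psme3 and of Psma6, Psmd7 and Psmg1 in each library, with the mean and SD (n = 3) of each group. The activators, Psmd7 and Psmg1 are lower in the stimulated groups and Psma6 is higher, with each guide.

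All 4 chaperones of core assembly, Psmg1 to Psmg4, were called lower with both guides. Psmg4 went from 25.4, 25.2 and 22.1 CPM to 16.9, 18.6 and 17.2 CPM with sgCtr (-0.47 ± 0.0846, adjusted p = 8.67e-05). Psmg1 went from 58.7, 62.1 and 63.6 CPM to 46.6, 44.7 and 43.5 CPM (-0.45 ± 0.0570, adjusted p = 6.48e-07). With sgNop16 the largest falls were those of Psmg1 (-0.38, adjusted p = 1.06e-05) and Psmg3 (-0.37, adjusted p = 0.000476). Of the chaperones of the cap base, Psmd5 was called lower with both guides (-0.29, adjusted p = 9.26e-06, and -0.14, adjusted p = 0.0194). Psmd9 was called with neither (-0.05 and 0.01). Psmd10, also known as gankyrin, was called higher with sgCtr, from 22.5, 22.4 and 20.2 CPM to 25.4, 27.4 and 26.5 CPM (0.28 ± 0.0887, adjusted p = 0.0123). That call did not hold without unstimulated replicate 3 (adjusted p = 0.0712) or CIT replicate 2 (0.0530), and with sgNop16 it was 0.21 (adjusted p = 0.0770). The regulator Psmf1, known as PI31, was at 41.4 to 47.8 CPM in the sgCtr libraries of both states and was not called (-0.03, adjusted p = 0.788). Psmc3ip, the meiotic gene, was not called either (0.01, adjusted p = 0.922).

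Summed over each role, the inducible subunits went from 352 to 391 CPM over unstimulated sgCtr libraries to 469 to 484 CPM after CIT, and from 374 to 390 to between 484 and 523 CPM with sgNop16. The cap genes summed to 3464 to 3579 CPM and then 2932 to 2992 CPM with sgCtr, and to 3366 to 3404 and then 3037 to 3102 CPM with sgNop16. In both states the guides did not overlap on this sum, with sgNop16 below sgCtr without CIT and above it with CIT. The activators summed to 1011 to 1056 CPM and then 729 to 747 CPM with sgCtr, and to 1003 to 1039 and then 757 to 804 CPM with sgNop16. These sums carry no test. In GENCODE M21, Psmb5, Psmd1, Psme2b and Psmg3 also share exon bases with a gene on the same strand. Psma4, Psmb7, Psmc3, Psmd1, Psmd13 and Psme1 share them with a protein-coding gene on the other strand. Levels of these members may hold reads of the other gene.

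**Figure D4:**
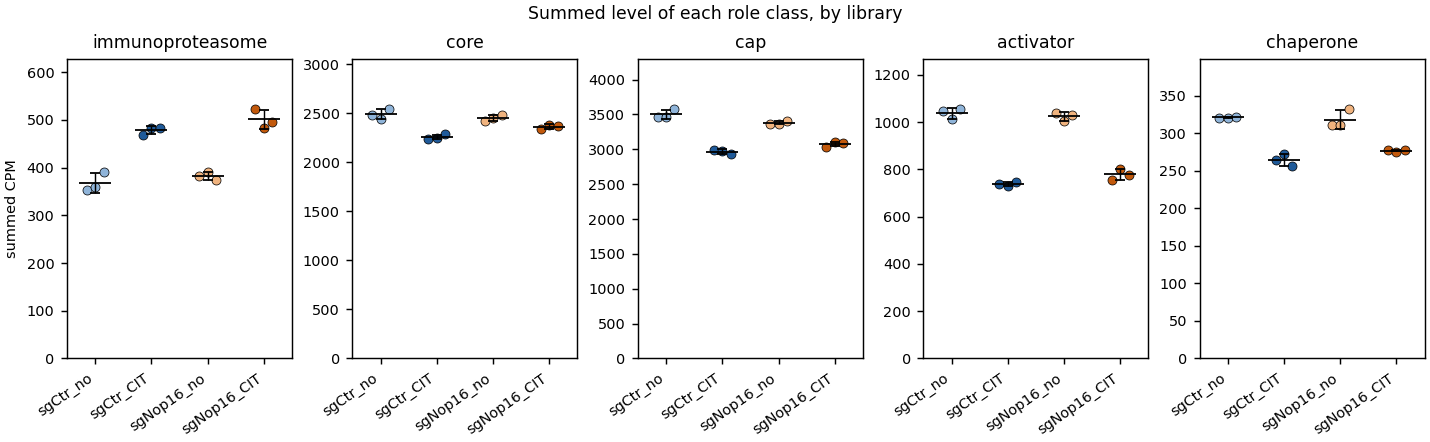
Summed CPM of the members of each role in each library, with the mean and SD (n = 3) of each group. The inducible subunits sum higher after CIT, and the core, cap, activator and chaperone sums are lower after CIT with each guide.

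In unstimulated cells the guide changed 1 member past the threshold. Psmb9 was higher with sgNop16 (0.22 ± 0.0442, 1.16-fold, adjusted p = 0.00497), the 3 libraries lying at 60.7 to 61.8 CPM against 51.8 to 53.7 CPM. So 1 of 48 members was called higher and 0 lower by edgeR, beside 4.06% of all genes, 2.14% higher and 1.92% lower. At an unadjusted p under 0.05 there were 2 members higher and 9 lower, beside 7.44% and 7.27% of all genes. DESeq2 called 2 members higher and 6 lower, beside 4.74% and 4.12% of the 13534 genes it gave an adjusted p. The call of Psmb9 held in the 15 alternatives run, with adjusted p up to 0.0258. Tap1, with which it shares exon bases, was also called higher (0.17, adjusted p = 0.0290). The other inducible subunits were at 0.05 (Psmb8) and -0.05 (Psmb10), and neither was called. The median member difference was -0.03, beside 0.00 over all genes. All sgNop16 libraries lay above all sgCtr libraries in 4 members (9.44% of all genes) and below in 9 (9.4%).

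After CIT the guide difference was small and mostly upward: 8 members were called higher and 1 lower, 18.8% of the 48, beside 7.12% of all genes, 4.05% higher and 3.07% lower. The median was 0.07, beside 0.01 over all genes, and 41 of 48 members were positive. DESeq2 called 14 higher and 1 lower, beside 8.89% and 6.65% of the 12558 genes it gave an adjusted p. In 16 members all sgNop16 libraries lay above all sgCtr libraries (13.2% of all genes) and in 1 below (10.9%). The largest called rise was that of Psma6 (0.17 ± 0.0353, 1.13-fold, adjusted p = 0.00323), from 248.7 to 269.3 CPM with sgCtr to 277.7 to 301.6 CPM with sgNop16. This call held in the 15 alternatives run, with adjusted p up to 0.0308. Without CIT it was at 0.10 and not called (adjusted p = 0.121), although all sgNop16 libraries lay above all sgCtr libraries there as well.

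The other 7 were spread over roles. Psme3 was at 283.8, 301.8 and 282.0 CPM with sgNop16 against 261.9, 251.9 and 276.1 CPM (0.14 ± 0.0343, adjusted p = 0.0162). The base ATPase Psmc4 was at 146.9, 147.0 and 146.9 CPM against 137.1, 135.7 and 128.8 CPM (0.13 ± 0.0376, adjusted p = 0.0307). Psmc6, another base ATPase, was at 168.1, 172.9 and 173.2 CPM against 150.1, 164.7 and 157.5 CPM (0.12 ± 0.0358, adjusted p = 0.0386). In none of these did the guides overlap. The lid gene Psmd8 was at 219.0 to 226.8 CPM against 206.4 to 207.8 CPM (0.12 ± 0.0315, adjusted p = 0.0269). Psmb6 (0.13 ± 0.0368, adjusted p = 0.0287) and Psmb5 (0.12 ± 0.0367, adjusted p = 0.0469) are the catalytic subunits whose libraries were given above, and Psmb3 was at 152.5 to 152.8 CPM against 139.5 to 142.3 CPM (0.11 ± 0.0323, adjusted p = 0.0345). Again the groups were clear of each other.

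The number of calls depended on single libraries. Without sgCtr CIT replicate 1, 2 or 3 the number called higher was 2, 4 and 2, and without sgNop16 CIT replicate 1, 2 or 3 it was 5, 1 and 2. Psme1 was the member called lower, at 131.6 to 145.6 CPM with sgNop16 against 149.9 to 162.6 CPM (-0.18 ± 0.0411, adjusted p = 0.00781). The call of Psme1 did not hold without sgCtr CIT replicate 1 (adjusted p = 0.0560) or sgNop16 CIT replicate 1 (0.0571). Its partner Psme2 was at 0.14 and was not called (adjusted p = 0.0620). The log2 ratio of Psme1 to Psme2 was 0.08 ± 0.0581 with sgCtr and -0.24 ± 0.0397 with sgNop16 after CIT (SD, n = 3), without overlap. It was 0.19 ± 0.0533 and 0.06 ± 0.0693 without CIT, again without overlap. Reads split between Psme2 and its near-copy Psme2b may affect this ratio. Psmb9 remained higher with sgNop16 in every library after CIT but was not called (0.14, adjusted p = 0.0605). The plot of guide differences sets both states side by side.

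**Figure D5:**
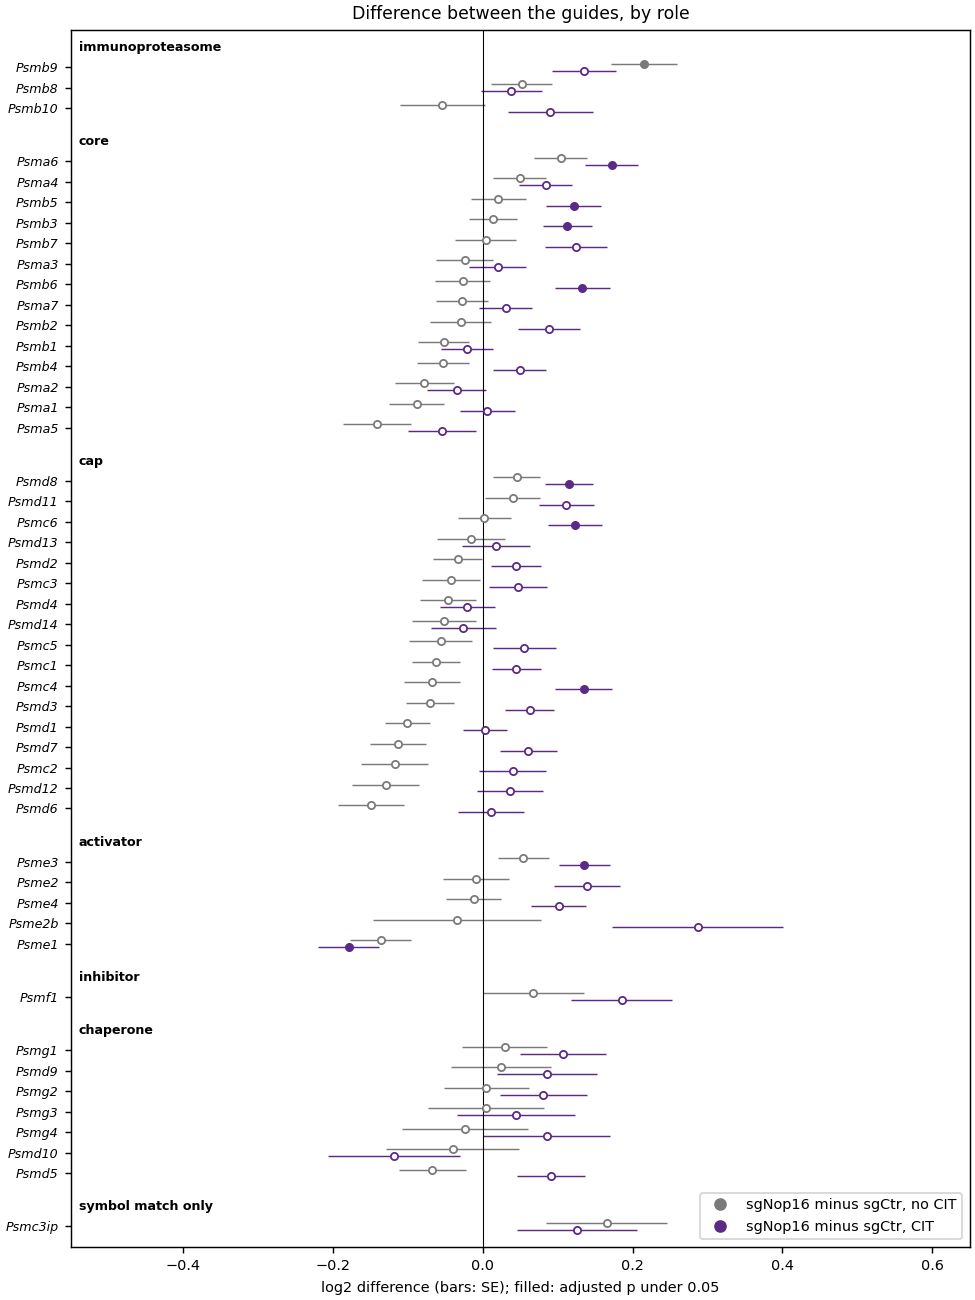
Log2 difference between the Nop16 and the control guide for each tested member without and with CIT, grouped by role, with the model's SE as bars, filled points for called members and a line at 0. After CIT most points lie above 0 and Psme1 lies below it, and Psmb9 is the member farthest above 0 without CIT.

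The test of the difference between the CIT responses, sgNop16 minus sgCtr, called Psmc4 alone (0.20 ± 0.0532, adjusted p = 0.0405). So 1 of 48 members was called higher and 0 lower, beside 2.83% of all genes, 1.23% higher and 1.6% lower. Psmc4 fell from 155.9, 150.2 and 165.2 CPM to 137.1, 135.7 and 128.8 CPM with sgCtr (-0.23, adjusted p = 2.28e-05). With sgNop16 it was at 150.2, 147.1 and 152.2 CPM and then 146.9, 147.0 and 146.9 CPM (-0.03, adjusted p = 0.631). The call was lost in 13 of the 20 alternatives, 10 of which leave out 1 library: every library but sgCtr unstimulated replicate 2 and CIT replicate 1, with adjusted p up to 0.154. Of the 48 members 43 were positive, all 14 core and all 17 cap genes among them, with a median of 0.09 beside 0.01 over all genes. Of the 44 members called in no fit, 10 changed sign in at least 1 alternative. At an unadjusted p under 0.05 there were 15 members positive and 0 negative, beside 7.22% and 6.12% of all genes. DESeq2 called 4 higher and 0 lower, beside 4.7% and 4.65% of the 11257 genes it gave an adjusted p. By p, Psmd7 (0.17, adjusted p = 0.0876) and Psmb6 (0.16, adjusted p = 0.112) came next after Psmc4. Psmb9 (-0.08, adjusted p = 0.660) and Psmb8 (-0.01, adjusted p = 0.962) were not called.

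Genes that work with the proteasome were followed in 4 lists. Over all 16794 genes, CIT called 21.1% lower and 20.6% higher with sgCtr, and 18.5% lower and 19.3% higher with sgNop16. Of 10 other subunits, receptors and associated enzymes, 7 were called lower and 0 higher with sgCtr and 6 and 0 with sgNop16. The largest falls were those of the deubiquitinase Uchl5 with sgCtr (-0.42, adjusted p = 5.23e-06) and the ubiquitin receptor Adrm1 with sgNop16 (-0.31, adjusted p = 7.94e-07). Of 8 genes around NRF1, the factor that raises proteasome genes when proteasomes are short, 4 were lower and 0 higher with each guide, namely Nfe2l1, Nfe2l2, Mafg and either Vcp (sgCtr) or Ddi2 (sgNop16). Its partner Mafg fell most (-0.54, adjusted p = 1.26e-08, and -0.50, adjusted p = 5.43e-08). Nfe2l1, the gene of NRF1 itself, fell by 0.27 and 0.12 on the log2 scale (adjusted p = 2.43e-06 and 0.0122), from 158 to 131 CPM and from 157 to 144 CPM. Of 11 tested genes of ubiquitin and its shuttles, 7 were lower and 0 higher with each guide, led by Rad23b with sgCtr (-0.40, adjusted p = 4.65e-11) and Ubqln4 with sgNop16 (-0.38, adjusted p = 5.99e-07), both carriers of tagged proteins.

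The list of MHC class I peptide supply moved the other way. Of the 12 genes followed, 8 were called higher and 0 lower with sgCtr and 10 and 0 with sgNop16. Among all genes 20.6% and 19.3% were called higher, and the medians of the list were 0.44 and 0.42. Tap1, a subunit of the peptide transporter, rose most with both guides (1.28, adjusted p = 1.44e-16, and 1.15, adjusted p = 9.70e-16). It was at 54.3 ± 3.39 and then 132 ± 3.47 CPM with sgCtr, and 61.3 ± 1.30 and then 136 ± 2.15 CPM with sgNop16 (SD, n = 3). In the guide comparisons, 4 of these 12 were called higher and 0 lower without CIT, namely Nlrc5, B2m, Tap1 and H2-D1. Among all genes 2.14% were called higher and 1.92% lower there. Nlrc5, the activator of class I genes, was at 0.47 (adjusted p = 1.55e-06). After CIT 5 were higher and 0 lower, beside 4.05% and 3.07% of all genes. They were B2m, H2-K1, H2-D1, Pdia3 and Calr, a chaperone of class I loading, which had the largest difference (0.15, adjusted p = 7.93e-05). In the other 3 lists 10, 8 and 11 genes were tested. Without CIT 1 of these was called lower and 0 higher, beside the 1.92% and 2.14% of all genes. It was Vcp (-0.11, adjusted p = 0.0227), a segregase that extracts proteins for degradation. After CIT the guide comparison called Nfe2l1 higher (0.14, adjusted p = 0.0256), beside 4.05% of all genes. It also called 3 genes of ubiquitin and shuttles higher, Rad23b (0.14, adjusted p = 0.00281), Nploc4 and Ubb. The interaction called 2 class I genes higher, Calr (0.14, adjusted p = 0.0149) and Pdia3, and 1 lower, Nlrc5 (-0.45, adjusted p = 0.000378), and 0 genes of the other 3 lists. Among all genes it called 1.23% higher and 1.6% lower.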

How the data were processed

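RNA was sequenced from 12 libraries, 3 per group, with a directional kit per the labels' protocols. The submitters' processing notes list HISAT2 2.2.1, StringTie 2.2.1 and GRCm39; whether counting used the strand was not given in the sources used here. A single table of estimated counts per gene was deposited by the authors, in unscaled whole numbers. Among low values 4 was in excess (8845 values, against 4025 at 5), so 1 fragment may be worth about 4 counts, which no source states. Symbols (52000 of 56941 genes), coding lengths and exon overlaps came from GENCODE M21 (GRCm38), promoters and gene neighbours from RefSeq tables (GRCm38.p6); the builds differ from the submitters', so no other coordinates are given.

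Counts were tested with edgeR 4.0.16 (R 4.3.3): filterByExpr kept 16794 genes, TMM factors lay between 0.985 and 1.01, and a robust quasi-likelihood fit with 1 mean per group over all 12 libraries gave 5 contrasts, tested on simulated counts first. CPM used TMM-scaled totals. Members, roles, gene lists and motifs were chosen with earlier results of these data known. A gene of the class I list is not reported here. Given in full are the catalytic subunits, members called in a guide effect or the interaction, up to 2 largest called changes each way per role and CIT response, members under 1 CPM and, per other list and contrast, the largest called change each way; members of counts of 5 or fewer, Nfe2l1, Tap1, Psmd9, Psmd8, Psmf1, Psmc3ip and the neighbouring genes were named after their values were seen. Genes of a like pattern were to be sought only if the inducible subunits had a mean pairwise r of at least 0.5; it was -0.112. Alternatives were RLE size factors, no filter, 5 CPM in 3 libraries, a replicate block, only the groups compared, DESeq2 1.42.0, library totals, counts divided by 4, no robust shrinkage (chosen after seeing the data) and each library left out.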

Additional observations from a re-analysis of the deposited data

Results flagged for a closer look

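Among the members and the genes of the followed lists, the test of the difference between the 2 CIT responses picked out 4 genes, beside 475 of all 16794 genes (2.83%). They were 1 of the 48 members tested (2.08%) and, of the 12 class I genes, 2 called higher and 1 lower. The other lists, with 10, 8 and 11 genes tested, had none. Psmc4, the base ATPase, had a difference of 0.20 on the log2 scale, with 134 ± 4.45 CPM after CIT with sgCtr and 147 ± 0.0762 CPM with sgNop16 (SD, n = 3). The call of Psmc4 was lost in most of the 20 alternatives, as given above. Nlrc5, the activator of MHC class I genes, had -0.45: it rose from 33.8 ± 0.526 to 79.3 ± 1.28 CPM with sgCtr and from 46.7 ± 1.78 to 80.5 ± 0.631 CPM with sgNop16, and its call held in the 20 alternatives run. Calr, a chaperone of class I loading, had 0.14 and lost its call in 5 alternatives, each without 1 library (adjusted p up to 0.0892). Pdia3, its partner oxidoreductase, had 0.12 and lost its call in 18 of 20 (adjusted p up to 0.155).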

How the results depend on the processing

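The counts of members called in the CIT responses stayed within 1.5 times under all alternatives: leaving out each library gave 36 to 38 lower and 3 to 4 higher with sgCtr, and 23 to 29 lower and 3 to 4 higher with sgNop16. The small guide counts moved. Without CIT, the members called higher (1) became 2 with the filter of 5 CPM in 3 libraries and 2 with DESeq2. Those called lower (0) became 3 with that filter, 6 with DESeq2, 2 with counts divided by 4, 1 with only the groups compared and 0 to 2 without single libraries. After CIT, the 8 called higher became 14 with DESeq2, 5 with library totals and 1 to 5 without single libraries, and the 1 called lower 0 to 1. In the interaction, the 1 called higher became 4 with DESeq2, 0 with library totals, 0 without robust shrinkage and 0 to 1 without single libraries. The cause was not tested. With the replicate block, 1 member was called lower without CIT and 0 higher in the interaction. Same-numbered libraries deviated together by r = -0.0448 to 0.0234 (18 pairs), so the numbers were not taken as pairs. No member value called in any fit reversed; of the 136 called in none, 42 changed sign in at least 1 alternative. At these depths the smallest guide difference called among the members was 0.11 (Psmb3).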

Other observations

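The protein-coding neighbours of 7 members (Psma6, Psmb8, Psmb9, Psmb10, Psmd7, Psme1 and Psme2) were looked up in the RefSeq gene order of GRCm38.p6. These members were chosen after their values were seen. Psmb9 and Psmb8 lie in the MHC beside Tap1, Tap2 and H2-DMb1. Tap1 and Tap2, the subunits of the peptide transporter, rose with CIT (1.28 and 0.57 with sgCtr, adjusted p = 1.44e-16 and 1.37e-10, and 1.15 and 0.45 with sgNop16, adjusted p = 9.70e-16 and 1.04e-08). H2-DMb1, a chain of the class II peptide loader, went from 39.01 ± 1.37 to 142 ± 9.27 CPM with sgCtr (SD, n = 3; 1.86, adjusted p = 2.28e-17). It was also called higher with sgNop16 in unstimulated cells (0.26, adjusted p = 0.0130).

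Psma6 lies beside Nfkbia, the gene of the NF-κB inhibitor IκBα. Nfkbia went from 192 ± 5.39 to 383 ± 9.52 CPM with sgCtr and from 220 ± 7.10 to 446 ± 5.26 CPM with sgNop16 (SD, n = 3). It was called higher in both CIT responses (0.99 and 1.02, adjusted p = 1.52e-17 and 1.02e-17) and in both guide comparisons, at 0.20 without CIT (adjusted p = 0.000326) and 0.22 with it (adjusted p = 5.80e-05). Psmd7, the member that fell most in the cap, lies between Wwp2, which was not called (0.05, adjusted p = 0.653), and Zfhx3, which rose (0.97, adjusted p = 2.47e-12), both with sgCtr. Emc9, which lies between Psme1 and Psme2, was called higher with sgCtr (0.89, adjusted p = 0.000409) at 2.84 and then 5.28 CPM, while both PA28 genes fell. It was not called with sgNop16 (0.43, adjusted p = 0.0759). Rnf31 beside Psme2 (0.06, adjusted p = 0.599 with sgCtr) and Ctrl and Lcat beside Psmb10 (-0.37 and 0.13, adjusted p = 0.677 and 0.893 with sgCtr) were called with neither guide. Ctrl and Lcat averaged only 0.655 and 0.547 CPM over the libraries, with SE of 0.589 and 0.590 with sgCtr, so a change in them could be missed.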
